A study of Mus musculus with 8 samples.

Results

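The extracellular matrix genes of the mouse ileum were compared between wild-type and Slc51a knockout mice. The set held the collagens, laminins, fibulins, lysyl oxidases, matrix metalloproteinases and Timp inhibitors, taken by gene symbol, together with the genes for nidogen, fibronectin, elastin, decorin, lumican, Sparc, periostin and tenascin C. Mmp7, a Paneth cell product, was left out by the same rule. Of 17097 genes measured on the arrays, 87 belonged to the set. Lama5, Fbn1 and Nid2 also came under the rule and were not analysed here.

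Both groups were male mice on a C57BL/6 background, about 2 months of age, fasted for 4 hours and anaesthetised with ketamine and xylazine before the ileum was taken. The wild-type group had 4 samples and the knockout group 4, which the titles number as biological replicates. The knockout lacks Slc51a, which encodes the alpha subunit of the basolateral organic solute transporter that carries bile acids out of ileal enterocytes. The sources used here do not say how the allele was made or whether the wild-type mice were littermates. Slc51a itself had a log2 signal of 11.36, 11.41, 11.29 and 11.37 in wild-type samples 1 to 4 and of 4.67, 4.50, 4.68 and 4.56 in knockout samples 1 to 4, so the arrays followed their labels.

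The extracellular matrix of the gut wall has 2 main forms. A basement membrane of laminin, type IV collagen and nidogen lies under the epithelium and around muscle cells, vessels and nerves, and an interstitial matrix of fibrillar collagens, fibronectin and proteoglycans fills the lamina propria and submucosa. Lysyl oxidases cross-link collagen and elastin, matrix metalloproteinases cut matrix proteins, and Timp proteins inhibit those proteases. Fibroblasts and smooth muscle cells make most of the interstitial matrix, while epithelial cells add some laminin chains of their own.

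The values were log2 probe set signals, with 1 probe set per gene, the one with the highest mean over the 8 arrays. Probe sets differ in how well they hybridise, so a level was compared only between samples and never between genes. A gene was called dim where both genotype means lay under 4.58, the median log2 signal of all probe sets that are not controls. By that measure 50 members were bright and 37 dim. Known ileal and epithelial markers were present: all 9 listed genes lay above that median. Smooth muscle markers were lower in the knockout, 10 of 10 measured, with a median log2 difference of -0.78. Their summed linear signal was 9245 to 11870 in wild type and 6103 to 6988 in knockout. Fibroblast markers summed to 555 to 667 in wild type and 485 to 534 in knockout. Of 9 measured, 1 was higher (Pdgfra at 0.20) and 2 were lower (Thy1 at -0.39 and Dpt at -0.38). That is 33.3% of the list past the threshold used below, beside 30.0% of all genes. Pdgfra was dim, and its call was lost in 6 of 20 alternative settings. The median log2 difference of the fibroblast list was -0.07. Whole ileum was measured, so fewer cells of a type and less RNA per cell cannot be told apart, and the part of these cell types in any difference below was not tested. The mean log2 signal of the 9 hybridization control probe sets was 8.11 in wild type 2, 8.13 in knockout 3 and 8.22 in knockout 4, against 8.49 to 8.78 on the other 5 arrays.

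Of the 87 matrix genes, 13 differed between the genotypes at a Benjamini-Hochberg adjusted p under 0.05 in limma, which is 14.9% of them. Over all 17097 genes the share was 30.0%. In the knockout, 6 members were higher and 7 lower. Higher were Col5a2, Col18a1, Mmp14, Loxl1, Col8a1 and Mmp23. Lower were Lama3, Col14a1, Mmp13, Col6a1, Col4a5, Timp2 and Col8a2. The genome-wide shares were 17.1% higher and 12.9% lower, so that 57% of all calls were higher; this share was 48.7% with cyclic loess and 62.7% with median centring. Among the 50 bright members 12 passed, beside 43.2% of the bright genes of the whole array. The only dim member that passed was Col8a2, and the 2 genotypes did not overlap in 13 of the 87 members, against 30.7% of all genes.

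Most differences were small. The median log2 difference, knockout minus wild type, was -0.02 over the 87 members and 0.01 over all genes, and the median size of the difference was 0.09 and 0.10. A change of at least 1.5-fold in a gene that passed was seen in Lama3, Col14a1 and Mmp13, all lower, which is 3 members beside 4.83% of all genes. The 74 members that did not pass lay between -0.33 and 0.31. Collagens as a whole had 3 higher, 4 lower and 35 that did not pass. The plot of differences by class shows that the calls were spread over the classes, with Lama3 far from the rest.

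**Figure D1:**
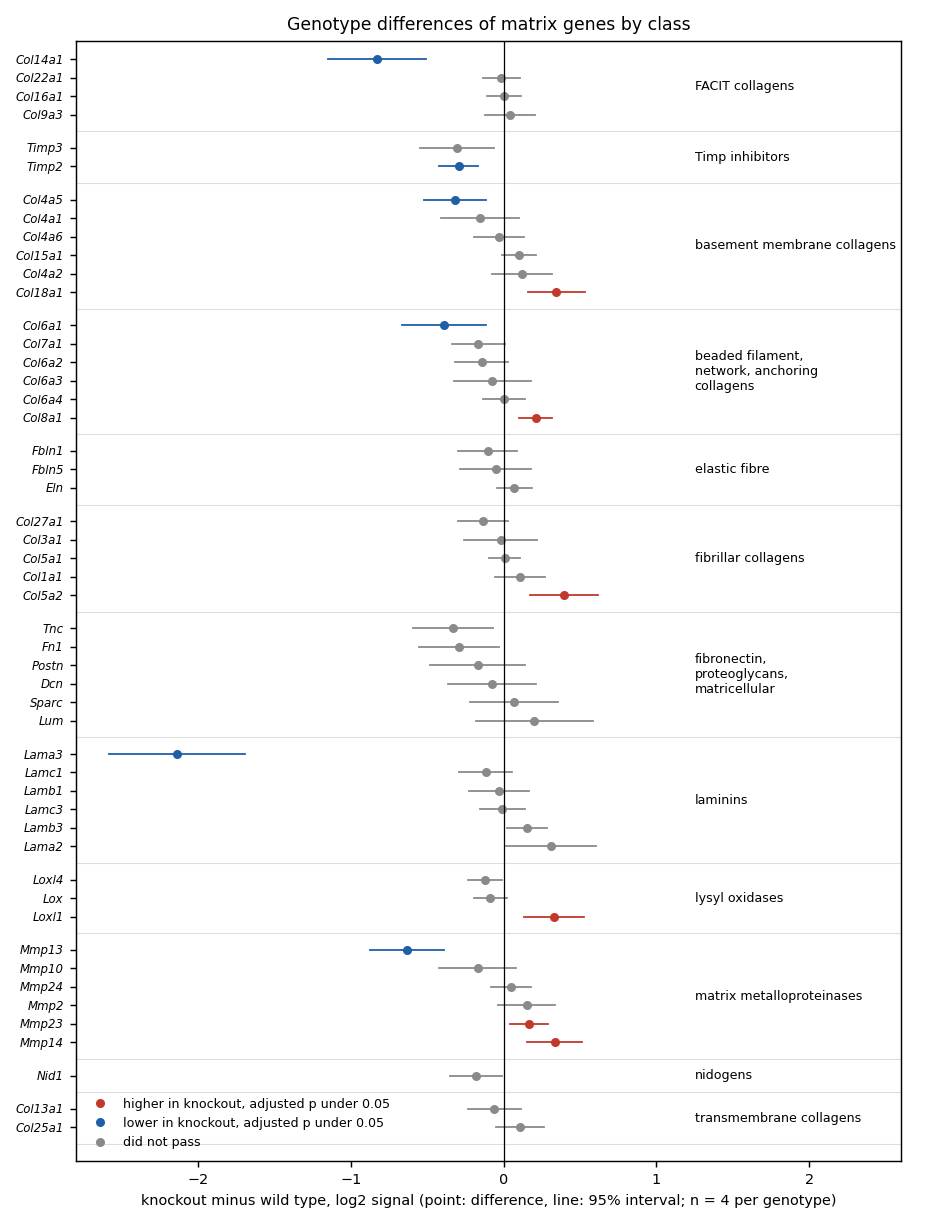
Knockout minus wild type log2 difference (x axis) of the 50 bright matrix genes, grouped by class, as points with 95% intervals (n = 4 per genotype). Red and blue mark genes higher and lower in the knockout at an adjusted p under 0.05, and grey genes did not pass; Lama3 lies at -2.14 and every other gene between -0.83 and 0.39.

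Laminins are trimers of an alpha, a beta and a gamma chain. The lead change of the whole set was in Lama3, the alpha chain of laminin-332, an epithelial laminin that anchors cells through hemidesmosomes. Its log2 signal was 7.30, 7.67, 7.54 and 7.42 in the wild-type samples and 5.15, 5.87, 5.60 and 4.74 in the knockout samples. Every knockout sample lay well below every wild-type sample, and the knockout samples also varied more among themselves. The means were 7.48 ± 0.16 and 5.34 ± 0.50 (SD, n = 4), a log2 difference of -2.14 (SE 0.20, 95% interval -2.58 to -1.70, limma adjusted p = 2.41e-05), or 4.41-fold lower. A second Lama3 probe set was dim, at 3.98 to 4.04 in wild type and 4.05 to 4.10 in knockout, and did not pass (0.06, limma adjusted p = 0.368 over all probe sets). Averaging both Lama3 probe sets gave -1.04, still past the threshold.

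The partner chain Lamb3, the beta chain of laminin-332, did not follow. Its log2 signal was 7.43, 7.51, 7.31 and 7.46 in wild type and 7.66, 7.46, 7.63 and 7.57 in knockout, so the groups overlapped. The difference was 0.15 (SE 0.06, 95% interval 0.02 to 0.29, limma adjusted p = 0.0790). It passed on the higher side with median centring (0.18, limma adjusted p = 0.0446) and without knockout 2 (0.19, limma adjusted p = 0.0318). The receptors of laminin-332 on epithelial cells did not pass either: the log2 difference was 0.11 for Itga6 and 0.13 for Itgb4, which pair in hemidesmosomes, and -0.13 for Itga3, with limma adjusted p of 0.0824, 0.0947 and 0.0941. These 3 receptors were named for their ligand after their values were seen, and each passed under at least 2 alternative settings, Itga6 and Itgb4 on the higher side and Itga3 on the lower.

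The other laminin chains did not pass. Lamc1, the gamma chain found in most laminins, differed by -0.12 (95% interval -0.29 to 0.06) and Lamb1, a widely used beta chain, by -0.03 (95% interval -0.23 to 0.16). Lama2, the alpha chain of muscle and nerve basement membranes, read 4.84, 4.37, 4.81 and 4.71 in wild type and 5.17, 5.22, 4.92 and 4.65 in knockout (0.31, SE 0.13, limma adjusted p = 0.113). In this gene 3 of 4 knockout samples lay above all wild-type samples, and knockout 4 lay below 3 of them. Lama1 and Lamb2 were dim, and Lamc3 differed by -0.01. Nid1, a nidogen that links laminin to type IV collagen, had 7.44, 7.64, 7.72 and 7.44 in wild type and 7.43, 7.35, 7.48 and 7.23 in knockout (-0.18, SE 0.08, limma adjusted p = 0.103), with overlapping groups. It passed as lower with cyclic loess normalisation (-0.24, limma adjusted p = 0.0436).

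**Figure D2:**
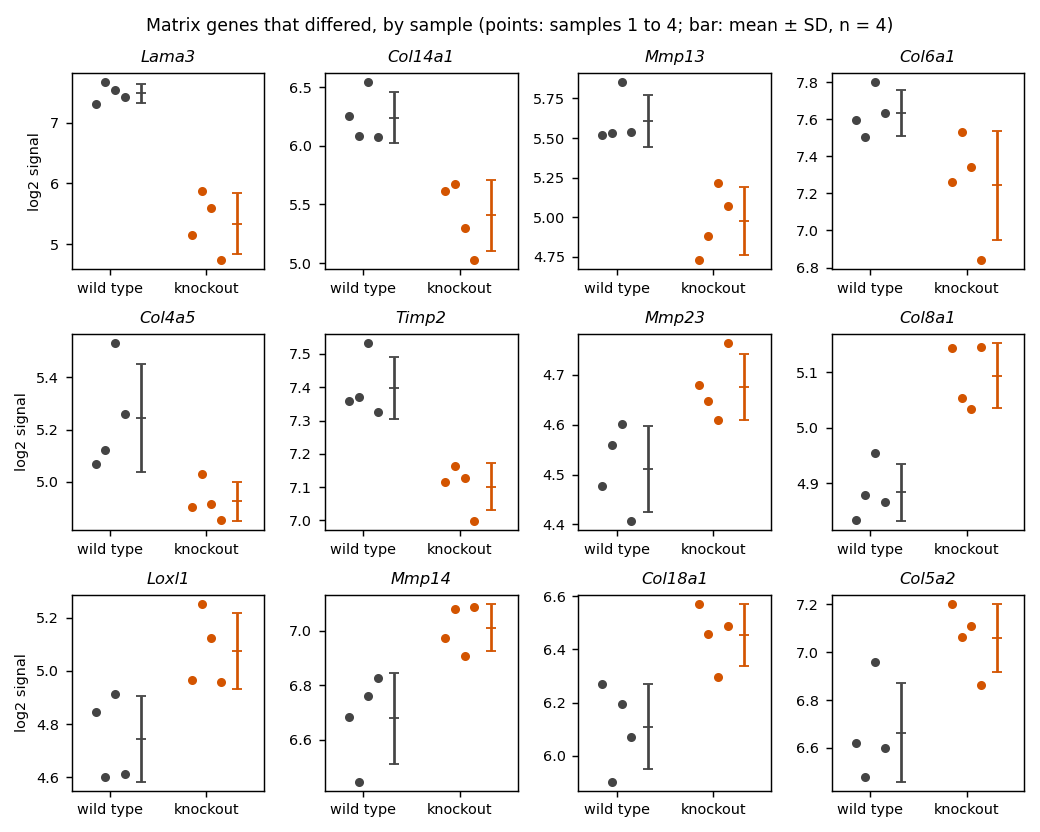
Log2 signal (y axis, a separate scale per gene) of the 12 bright matrix genes that passed, with 1 point per sample and the mean ± SD beside it (n = 4 per genotype). The genotypes are separated in every panel except those of Col6a1 and Col5a2.

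Chains of 1 trimer were compared within each sample, so that a shift common to both chains drops out. Tests covered 8 pairs, each with a 2-sided exact permutation test over the 70 ways to assign the samples, whose smallest possible p is 0.0286. The pairs take in chains that had passed on their own, such as Lama3, Col8a1 and Col8a2. Their tests reuse the same values and add no separate support. Lama3 minus Lamb3, with the wild-type mean set to 0, lay between -0.18 and 0.17 in wild type and at -2.57, -1.64, -2.08 and -2.89 in knockout samples 1 to 4. The mean difference was -2.29 (exact p = 0.0286, 0.0762 after Benjamini-Hochberg adjustment over the 8 pairs). The same smallest p was reached by Col4a1 minus Col4a2 (-0.27) and by Col8a1 minus Col8a2 (0.40). Each chain was read from 1 probe set. Another Col4a1 probe set, also bright, differed between the genotypes by 0.04, against -0.15 for the one used. The other Col8a1 probe sets, both dim, differed by -0.03 and -0.09, against 0.21 for the one used. None of the 8 pairs passed 0.05 after the adjustment, and a single pair at the smallest possible p cannot.

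**Figure D3:**
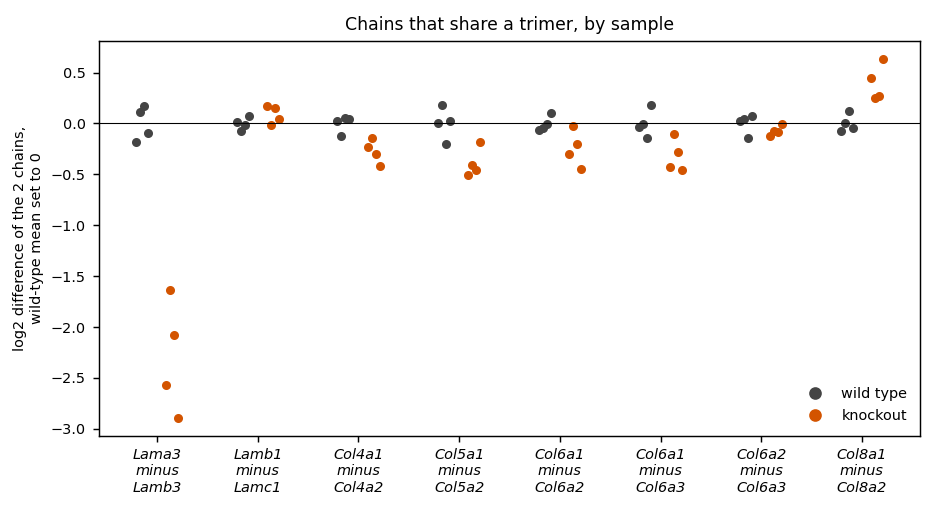
Log2 difference between chains that share a trimer (y axis, with the wild-type mean of each pair set to 0), with 1 point per sample for 8 pairs. The knockout points for Lama3 minus Lamb3 lie between -2.89 and -1.64, and those of the other 7 pairs lie between -0.51 and 0.64.

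Type IV collagen forms the network of basement membranes. Its main chains, Col4a1 and Col4a2, are found together in 1 trimer and did not pass. Col4a1 read 7.77, 7.58, 8.07 and 7.59 in wild type and 7.72, 7.71, 7.63 and 7.33 in knockout (-0.15, 95% interval -0.41 to 0.10, limma adjusted p = 0.374). Col4a2 read 7.15, 7.11, 7.42 and 6.96 in wild type and 7.36, 7.26, 7.34 and 7.16 in knockout (0.12, 95% interval -0.08 to 0.32, limma adjusted p = 0.374). The intervals of both reach past 0 on either side. Col4a5, a minor chain found around smooth muscle, fell from 5.07, 5.12, 5.53 and 5.26 to 4.91, 5.03, 4.91 and 4.85 (-0.32, SE 0.09, limma adjusted p = 0.0212). The groups did not overlap, but the Col4a5 call was lost without knockout 4 (-0.30, limma adjusted p = 0.0531). It was also lost with the hybridization controls as a covariate (-0.26, limma adjusted p = 0.0877). Without wild type 2, knockout 3 and knockout 4, the 3 arrays low in those controls, it was lost at a similar difference (-0.32, limma adjusted p = 0.130).

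Col18a1 encodes the basement membrane collagen whose C-terminal fragment is endostatin. It was higher in the knockout on both of its probe sets. The brighter one read 6.27, 5.90, 6.19 and 6.07 in wild type and 6.57, 6.46, 6.30 and 6.49 in knockout, and the groups did not overlap. The means were 6.11 ± 0.16 and 6.45 ± 0.12 (SD, n = 4), a log2 difference of 0.34 (SE 0.08, 95% interval 0.16 to 0.53, limma adjusted p = 0.00934), or 1.27-fold. The other Col18a1 probe set, whose identifier marks possible binding to related transcripts, read 5.72, 5.63, 5.85 and 5.72 in wild type and 6.61, 6.68, 6.93 and 6.58 in knockout. Its difference was larger, 0.97 (SE 0.08, limma adjusted p = 1.39e-05 over all probe sets). Among the 13 members that passed, 10 had further probe sets, and Col18a1 was the one with another that passed in the same direction; in none did another pass in the opposite direction. Col15a1, the closest relative of Col18a1, differed by 0.10 (95% interval -0.01 to 0.21, limma adjusted p = 0.172), without overlap of the groups.

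RefSeq places more than 1 start site in Col18a1, and the windows before both starts are printed because the 2 probe sets moved by different amounts. Each is 150 bases long and ends at the base before the start, read 5' to 3' on the minus strand of mouse assembly GRCm38.p6, with GC boxes (GGGCGG on either strand) in capitals. The first window lies at chr10:77113706-77113855 and the second at chr10:77166531-77166680. The second window holds GC boxes and the first holds none. Which start each probe set reads is not stated in the labels or the files.
Col18a1, start in the first window: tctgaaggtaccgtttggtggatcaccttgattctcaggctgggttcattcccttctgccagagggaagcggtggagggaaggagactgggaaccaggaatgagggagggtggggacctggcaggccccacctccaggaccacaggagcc
Col18a1, start in the second window: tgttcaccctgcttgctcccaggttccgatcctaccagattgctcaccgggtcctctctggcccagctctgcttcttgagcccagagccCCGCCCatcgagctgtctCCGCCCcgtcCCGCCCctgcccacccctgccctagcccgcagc

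Col14a1 encodes a FACIT collagen, a class that sits on the surface of collagen fibrils and is made by fibroblasts. Its log2 signal was 6.25, 6.08, 6.54 and 6.08 in wild type and 5.62, 5.68, 5.30 and 5.03 in knockout. All knockout samples lay below all wild-type samples. The means were 6.24 ± 0.22 and 5.41 ± 0.30 (SD, n = 4), a log2 difference of -0.83 (SE 0.15, 95% interval -1.15 to -0.51, limma adjusted p = 0.00124), or 1.78-fold lower. The other 2 Col14a1 probe sets were dim and did not pass, at -0.15 and 0.01, and the mean of the 3 gave -0.32, still past the threshold. It was the only FACIT collagen of 9 that passed, or 11.1% beside 30.0% of all genes. Among the other 8, 5 were dim, and the differences of all 8 lay between -0.02 and 0.19.

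Type VI collagen forms beaded filaments around cells. Col6a1, 1 of its chains, read 7.60, 7.51, 7.80 and 7.63 in wild type and 7.26, 7.53, 7.34 and 6.84 in knockout. Knockout 2 lay above wild type 2, so the groups overlapped, and knockout 4 was the lowest of all 8 samples. The log2 difference was -0.39 (SE 0.12, limma adjusted p = 0.0358), and -0.26 without knockout 4. The Col6a1 call was lost without wild type 1, wild type 3, wild type 4 or knockout 1, at limma adjusted p of 0.0612, 0.0997, 0.0704 and 0.0653. It was also lost without the 3 arrays low in hybridization controls (-0.28, limma adjusted p = 0.0910). With those controls as a covariate it was lost too (-0.30, limma adjusted p = 0.140). Its trimer partners did not pass: Col6a2 differed by -0.15 (95% interval -0.32 to 0.03) and Col6a3 by -0.07 (95% interval -0.32 to 0.17). Col7a1, which forms anchoring fibrils under epithelia, differed by -0.17 (limma adjusted p = 0.144).

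Type VIII collagen is a short-chain network collagen of vessels. Its chains went opposite ways. Col8a1 read 4.83, 4.88, 4.96 and 4.87 in wild type and 5.14, 5.05, 5.03 and 5.15 in knockout, without overlap (0.21, SE 0.05, 95% interval 0.10 to 0.32, limma adjusted p = 0.00701). The mean of its probe sets gave 0.03 (limma adjusted p = 0.676). Without the 3 arrays low in hybridization controls the Col8a1 difference was 0.21 and did not pass (limma adjusted p = 0.0581). Col8a2 was dim, with means of 3.52 and 3.34, so its difference of -0.19 (SE 0.06, limma adjusted p = 0.0451) lay close to the floor of the array. That call was lost in 13 of 20 alternatives, among them each single array left out except knockout 2 or knockout 3.

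Fibrillar collagens make up the bulk of the interstitial matrix, and 1 of 11 passed, or 9.09% beside 30.0% of all genes. Col5a2, a chain of type V collagen, which helps to start fibrils and set their width, was higher: 6.62, 6.48, 6.96 and 6.60 in wild type against 7.20, 7.06, 7.11 and 6.86 in knockout. Wild type 3 lay above knockout 4, and otherwise the groups were apart. The means were 6.66 ± 0.21 and 7.06 ± 0.14 (SD, n = 4), a log2 difference of 0.39 (SE 0.10, 95% interval 0.17 to 0.62, limma adjusted p = 0.0124). The other Col5a2 probe set was dim and differed by 0.01. Averaging the probe sets ended the Col5a2 call (0.20, limma adjusted p = 0.0769). Its partner Col5a1 differed by 0.00 (95% interval -0.10 to 0.11).

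The fibrillar collagens of the loose stroma did not pass. Col3a1, a main collagen of distensible tissue, had 10.68, 10.46, 10.86 and 10.46 in wild type and 10.73, 10.64, 10.68 and 10.32 in knockout, with a difference of -0.02 (95% interval -0.26 to 0.21, limma adjusted p = 0.915). Col1a1, a chain of type I collagen, had 5.13, 4.80, 5.10 and 4.99 in wild type and 5.22, 5.09, 5.07 and 5.05 in knockout. Its difference was 0.11 (95% interval -0.06 to 0.27, limma adjusted p = 0.336), and it passed only with the hybridization controls as a covariate (0.19, limma adjusted p = 0.0477). The other type I chain, Col1a2, was dim, with means of 3.37 and 3.42. The 4 transmembrane collagens, which sit in the cell membrane, and Col26a1 did not pass either, with differences between -0.09 and 0.11.

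Fibronectin, the proteoglycans and the matricellular genes had no call among 6, and 4 of the 6 differences were below 0. All 6 were bright, and 43.2% of all bright genes passed. Fn1, which encodes fibronectin, read 7.90, 7.77, 8.19 and 7.74 in wild type and 7.76, 7.72, 7.66 and 7.28 in knockout (-0.29, SE 0.12, 95% interval -0.56 to -0.03, limma adjusted p = 0.0914). Tnc, which encodes tenascin C, a matrix glycoprotein of remodelling tissue, read 7.09, 6.91, 7.50 and 7.02 in wild type and 6.73, 7.01, 6.80 and 6.64 in knockout (-0.33, SE 0.12, limma adjusted p = 0.0578). In both genes the groups overlapped, wild type 3 was the highest sample and knockout 4 the lowest. Tnc passed as lower in 7 of 21 alternatives, among them the fit without knockout 2 (-0.41, limma adjusted p = 0.0305) and that without wild type 2 (-0.41, limma adjusted p = 0.0330). The mean of the Tnc probe sets also passed as lower (-0.25, limma adjusted p = 0.0228). So did the other Tnc probe set, which was dim (-0.16, limma adjusted p = 0.0392 over all probe sets).

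Dcn, which encodes decorin, a small proteoglycan on collagen fibrils, read 9.70, 9.17, 9.82 and 9.48 in wild type and 9.53, 9.54, 9.58 and 9.22 in knockout (-0.08, 95% interval -0.36 to 0.21). Lum, which encodes its relative lumican, read 6.97, 6.27, 7.08 and 6.58 in wild type and 7.10, 7.01, 7.03 and 6.56 in knockout (0.20, 95% interval -0.18 to 0.58). Wild type 2 and knockout 4 were the low samples of both genes. Sparc, a collagen-binding matricellular gene, differed by 0.07 (95% interval -0.22 to 0.36) and Postn, which encodes periostin, by -0.17 (95% interval -0.48 to 0.14).

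Elastic fibre genes had no call among 5, beside 30.0% of all genes. Eln, which encodes elastin, differed by 0.07 (95% interval -0.04 to 0.18, limma adjusted p = 0.363). The fibulins Fbln1 and Fbln5, which bind elastic fibres and basement membranes, differed by -0.11 and -0.05, and Fbln2 and Fbln7 were dim. Of 5 lysyl oxidases 1 passed. Loxl1, the family member tied to elastic fibre upkeep, read 4.85, 4.60, 4.91 and 4.61 in wild type and 4.96, 5.25, 5.12 and 4.96 in knockout. The groups did not overlap, although wild type 3 came close to the lowest knockout samples (0.33, SE 0.09, limma adjusted p = 0.0156). Without the 3 arrays low in hybridization controls the Loxl1 call was lost, at a similar difference (0.32, limma adjusted p = 0.0991). Lox, the founding member of the family, differed by -0.09 (95% interval -0.20 to 0.02) and Loxl4 by -0.12 (limma adjusted p = 0.0980).

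Matrix metalloproteinases were the largest class, with 17 members, of which 11 were dim. Mmp13, a collagenase that cuts fibrillar collagen, was lower in the knockout. It read 5.52, 5.53, 5.85 and 5.54 in wild type and 4.73, 4.88, 5.22 and 5.07 in knockout. The groups were apart by more than the spread of 3 of the wild-type samples, and wild type 3 stood above them. The means were 5.61 ± 0.16 and 4.97 ± 0.21 (SD, n = 4), a log2 difference of -0.63 (SE 0.11, 95% interval -0.87 to -0.39, limma adjusted p = 0.00110), or 1.55-fold lower. The call held in 21 of 21 alternatives.

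Mmp14, a membrane-anchored metalloproteinase that activates pro-Mmp2 at the cell surface, was higher. It read 6.68, 6.45, 6.76 and 6.83 in wild type and 6.97, 7.08, 6.91 and 7.09 in knockout, without overlap. The means were 6.68 ± 0.17 and 7.01 ± 0.09 (SD, n = 4), a log2 difference of 0.33 (SE 0.08, 95% interval 0.15 to 0.51, limma adjusted p = 0.00897), or 1.26-fold. Timp2, which inhibits metalloproteinases and also bridges Mmp14 to pro-Mmp2, was lower, at 7.36, 7.37, 7.53 and 7.33 in wild type and 7.12, 7.16, 7.13 and 6.998 in knockout. Here too the groups did not overlap (-0.30, SE 0.06, 95% interval -0.43 to -0.17, limma adjusted p = 0.00275). The other 4 Timp2 probe sets differed by -0.11, -0.18, -0.22 and 0.04 without passing, and only the last of them was dim. The mean of all 5 gave -0.15 (limma adjusted p = 0.0822). Mmp2 itself, a gelatinase, read 6.41, 6.24, 6.56 and 6.22 in wild type and 6.52, 6.63, 6.53 and 6.35 in knockout (0.15, 95% interval -0.04 to 0.34, limma adjusted p = 0.222), so no difference was detectable with 4 arrays per genotype.

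Among the other bright metalloproteinases, Mmp23 passed by a narrow margin. It read 4.48, 4.56, 4.60 and 4.41 in wild type and 4.68, 4.65, 4.61 and 4.76 in knockout (0.16, SE 0.06, limma adjusted p = 0.0493). The Mmp23 call was lost in 15 of 21 alternatives, including every fit without a single array except wild type 3 or knockout 3. The other Mmp23 probe set, which was dim, did not pass (-0.02, limma adjusted p = 0.893 over all probe sets). Mmp10, a stromelysin, read 6.93, 6.70, 6.94 and 6.87 in wild type and 6.82, 6.40, 6.99 and 6.55 in knockout (-0.17, 95% interval -0.42 to 0.08, limma adjusted p = 0.307). Timp3, an inhibitor that binds to the matrix, read 6.41, 6.69, 6.61 and 6.60 in wild type and 6.37, 6.34, 6.47 and 5.92 in knockout (-0.30, SE 0.11, limma adjusted p = 0.0583). Its groups overlapped through wild type 1, and it passed as lower in 7 of 21 alternatives. Timp1, the inducible inhibitor, was dim (0.18, limma adjusted p = 0.119) and passed as higher without the 3 arrays low in hybridization controls (0.32, limma adjusted p = 0.0381).

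The promoters of 3 of these metalloproteinase genes, chosen after their values were seen, are printed as a description of sequence. They cover the 150 bases before the RefSeq start in GRCm38.p6, 5' to 3' on the plus strand. Capitals mark an AP-1 letter match (TGANTCA, which reads the same on both strands), a TATA box (TATAAA on the gene's strand) and a GC box (GGGCGG on either strand), and in these windows no match to 1 motif overlaps a match to another. The windows are chr9:7272364-7272513 for Mmp13, chr9:7502192-7502341 for Mmp10 and chr14:54431448-54431597 for Mmp14.
Mmp13: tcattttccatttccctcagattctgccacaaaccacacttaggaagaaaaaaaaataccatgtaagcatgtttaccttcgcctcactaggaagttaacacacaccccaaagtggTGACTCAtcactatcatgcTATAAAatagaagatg
Mmp10: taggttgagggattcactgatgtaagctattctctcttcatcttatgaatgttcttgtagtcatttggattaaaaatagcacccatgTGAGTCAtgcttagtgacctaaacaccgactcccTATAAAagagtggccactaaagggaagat
Mmp14: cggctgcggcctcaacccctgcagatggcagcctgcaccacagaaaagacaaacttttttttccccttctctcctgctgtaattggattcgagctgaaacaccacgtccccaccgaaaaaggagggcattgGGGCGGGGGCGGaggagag

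In the Mmp13 window the AP-1 match began 35 bases and the TATA box 16 bases before the start, and in the Mmp10 window 63 and 29 bases before it. Mmp13 and Mmp10 thus share both letter matches, while Mmp13 passed as lower and Mmp10 did not pass. The Mmp14 window held GC boxes and neither of the other motifs. GC boxes also lay before Col4a5, Timp2 and Col8a2, which were lower, and before Col8a1, which was higher. Neither Mmp23 window held a GC box, and Mmp23 was higher. Any link between the motifs and the direction of a difference was not tested. RefSeq windows were found for 61 members, 71 windows in all, 9 of the 13 called members among them. The AP-1 letters occurred in 8 of these 71 windows, 11.3%, and in 4.24% of all 32851 windows. For the TATA box the shares were 16.9% and 4.84%, and for the GC box 42.3% and 28.6%. Among 8 metalloproteinase members of the chromosome 9 cluster with a window, 7 held the AP-1 letters and 6 held both the AP-1 letters and a TATA box. Outside this cluster only Col6a1 among the members held the AP-1 letters, so the higher AP-1 share came from the cluster. A letter match is a description of the sequence, and binding was not measured.

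Matrix genes also differed between samples of 1 genotype. Among the 50 bright members, wild type 3 was the highest wild-type sample for 32, and knockout 4 was the lowest knockout sample for 33. The median deviation of these genes from their mean over the 8 arrays was 0.15 in wild type 3 and -0.15 in knockout 4, and between -0.03 and 0.06 on the other 6 arrays. Col3a1, Col6a2, Col6a3, Dcn, Lum, Sparc, Postn and Fn1, grouped after their values were seen, had median deviations of 0.10, -0.12, 0.29 and -0.09 in wild type and 0.11, 0.04, 0.05 and -0.29 in knockout. The smooth muscle markers had median deviations of 0.29, 0.40, 0.57 and 0.17 in wild type and of -0.32, -0.33, -0.35 and -0.54 in knockout. They were likewise highest in wild type 3 and lowest in knockout 4. The 8 matrix genes are all members that did not pass, so their overlap between the genotypes follows from that choice. Limma's array weights were 0.60 for knockout 4 and 0.94 to 1.31 for the other arrays.

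**Figure D4:**
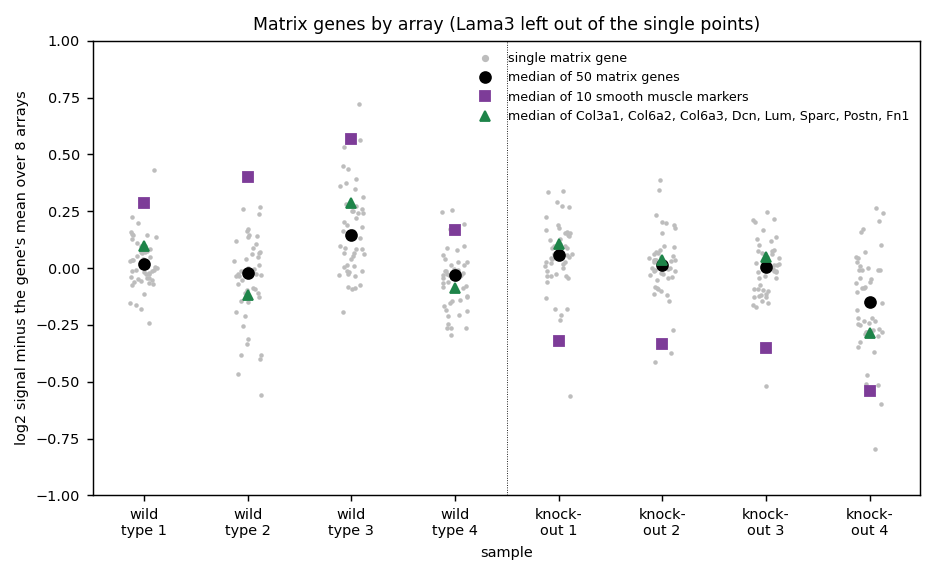
Log2 signal minus the gene's mean over 8 arrays (y axis) for each sample (x axis), with grey points for bright matrix genes, black circles for their median, triangles for 8 stromal matrix genes and squares for 10 smooth muscle markers. The matrix medians lie highest in wild type 3 (0.15) and lowest in knockout 4 (-0.15), and the smooth muscle medians are above 0 in wild type and below 0 in knockout.

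Genes outside the set that act on the matrix were counted from lists. Of 24 measured matrix receptors 1 was higher, 8 were lower and 15 did not pass, or 37.5% called beside 30.0% of all genes. All of these calls fell among the 19 bright receptors, and 43.2% of all bright genes passed. The 4 with the smallest p were Itga1, a collagen receptor subunit of muscle and stroma (-0.93, SE 0.05, limma adjusted p = 8.15e-07), Itgb5 (-0.72, SE 0.10), Itgav (-0.46, SE 0.06), which pairs with Itgb5 to bind RGD-bearing matrix proteins, and Itga8 (-0.89, SE 0.12). For Itgav the mean of its probe sets gave -0.10 and did not pass. Of 31 other matrix components 2 were higher and 6 lower, 25.8% called. Efemp1, a fibulin-like glycoprotein, was lower (-0.86, SE 0.10, limma adjusted p = 7.56e-05), as was Npnt, which encodes nephronectin, a ligand of the Itga8 integrin (-0.68, SE 0.11), although the mean of the Npnt probe sets gave -0.14 and did not pass. Matn2, a matrilin, was higher (0.41, SE 0.06), and Fras1, a basement membrane protein gene, was lower and dim (-0.33).

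Collagen maturation genes had 2 higher, 3 lower and 14 that did not pass, 26.3% called beside 30.0% of all genes. Among the 10 bright genes of this list 2 were higher and 2 lower, and 43.2% of all bright genes passed. Ppib, a prolyl isomerase of the endoplasmic reticulum, was higher (0.29, SE 0.04, limma adjusted p = 0.000613). Serpinh1, the collagen chaperone, was lower (-0.32, SE 0.06, limma adjusted p = 0.00196), and so was Bmp1, a procollagen C-proteinase (-0.35, limma adjusted p = 0.00520). The Bmp1 call did not hold when its probe sets were averaged (-0.13, limma adjusted p = 0.0819) or without the 3 arrays low in hybridization controls (-0.32, limma adjusted p = 0.0503). P3h2, a collagen prolyl 3-hydroxylase gene, was lower and dim (-0.36).

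Of 26 other proteases and inhibitors 2 were higher and 8 lower, 38.5% called beside 30.0% of all genes. Mep1a and Mep1b encode the subunits of meprin, a metalloproteinase of the enterocyte brush border, and differed by -1.28 (SE 0.09, limma adjusted p = 3.75e-06) and -0.38. Plat, tissue plasminogen activator, was lower (-0.98, SE 0.17, limma adjusted p = 0.00107), and Adam9, a membrane sheddase, was higher (0.29). In the TGF-beta pathway, a main inducer of matrix genes, 6 of 15 were lower, 0 higher and 9 did not pass, 40.0% called. Of its 13 bright genes 6 passed, and of the 21 bright proteases and inhibitors 9, near the 43.2% of all bright genes. Tgfbi, a matrix protein induced by TGF-beta, was lower (-1.12, SE 0.05, limma adjusted p = 2.85e-07), as were Smad3 (-0.34), Tgfbr3 (-0.28) and Tgfbr1 (-0.27). The last 3 were not past the threshold when the probe sets of each gene were averaged. The ligands Tgfb1, Tgfb2 and Tgfb3 did not pass. The plot of these lists sets them beside the cell type markers.

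**Figure D5:**
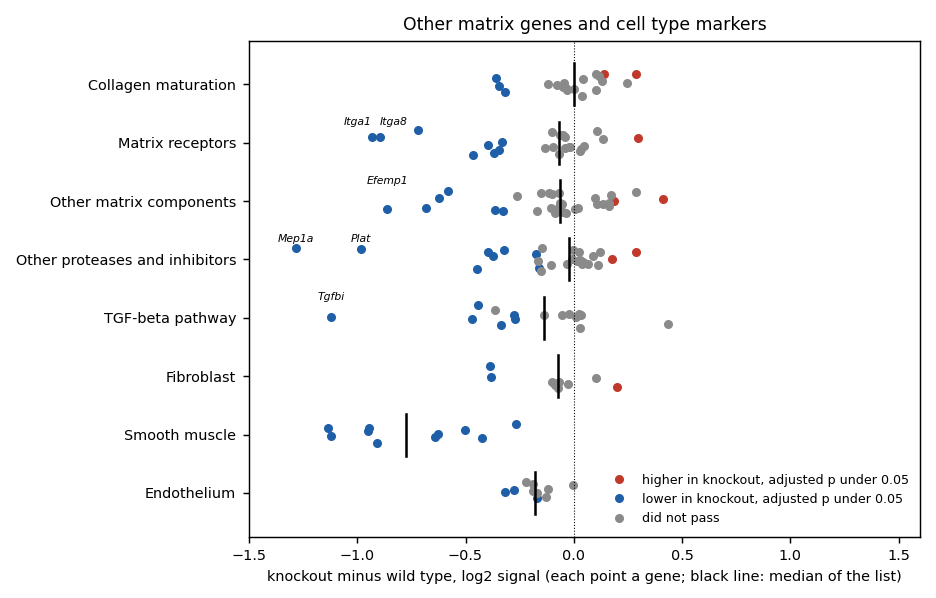
Knockout minus wild type log2 difference (x axis) of single genes in 5 lists of other matrix genes and 3 lists of cell type markers, with a black line at each list's median (n = 4 per genotype). The smooth muscle markers all lie below 0 with a median of -0.78, while the medians of the other lists lie between -0.18 and 0.00.

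Markers of further cell types were read from the same arrays, where 30.0% of all genes and 43.2% of bright genes passed. Smooth muscle genes with the smallest p were Tpm2, Myh11, Mylk and Des, all lower. Of 10 endothelial markers 3 were lower (Kdr, Cdh5 and Vwf), of which Cdh5 was dim. The Vwf call was lost in 17 of 21 alternatives, every single array left out but knockout 4 among them. The list had a summed linear signal of 400 to 451 in wild type and 365 to 389 in knockout. Of 9 leukocyte markers 5 were lower, among them Cd3g, Ptprc, Cd79b and Cd3e, with sums of 11161 to 11557 and 9170 to 10076. Of 5 enteric nerve and glia markers 3 were lower (Vip, and the dim Elavl4 and Snap25), and Upk1b was the 1 lower of 4 mesothelial markers. Epithelial markers had 1 higher (Cdx1) and 3 lower (Slc10a2, Vil1 and Cdh1) of 9, all bright, or 44.4% called, near the share of bright genes, with sums of 38959 to 40562 and 36924 to 38992. No call was made among 2 Paneth cell, 1 adipocyte or 4 chondrocyte markers. The part of these cell types in the matrix differences was not tested.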

How the data were processed

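RNA of 4 wild-type and 4 Slc51a knockout ilea was labelled by 3' in vitro transcription and hybridised to Affymetrix arrays, per the labels' protocols. Values are log2 signals of probe sets as the authors deposited them, which the submitters' processing notes name as RMA output. The sources used here do not give the RMA software, its version or any scan batch. RMA equalises the arrays and compresses low signals, so fold changes of dim genes are understated. The number of arrays limits the precision.

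Of 45037 probe sets that are not controls, 28898 carried 1 symbol in the platform's annotation, 551 carried several and 15588 carried none; 28689 were matched by Entrez identifier to RefSeq (GRCm38.p6) to update the symbol. The brightest probe set stood for each of 17097 genes. The main test was limma 3.58.1 (lmFit, then eBayes) under R 4.3.3, 2-sided, on all 8 samples without covariates, with p-values adjusted by Benjamini-Hochberg across the 17097 genes and called under 0.05. The members and lists were chosen with earlier results of these data known. Named genes were all members past the threshold, a set of main matrix genes whatever their values, up to 4 genes per list with the smallest p, and others, chosen after their values were seen, where they bear on these. The script was tested on simulated data for the genotype comparison (17097 genes, with 50 changed at each size). It recovered 44% of differences of 0.25 (log2), 82% of 0.5 and 100% of 1, with 2 false calls. In the data 5134 genes passed, and the Benjamini-Hochberg cutoff depends on how many genes differ. These shares are therefore not the power of the comparison reported here. Promoter sequences are from RefSeq; Lama3, Col14a1, Col5a2 and Loxl1 had no window and are not shown. Alternatives were a filter on dim genes, 3 other normalisations, averaging of probe sets, a robust eBayes with a mean trend, weights for arrays, a replicate block, leaving out each array, a threshold of 0.01, a fold of 1.5, any probe set and an unmoderated model. After seeing the data, 2 fits were added: without the 3 arrays low in hybridization controls, and with the mean of those controls as covariate. The fit without the 3 arrays used fewer samples, so a call lost there does not by itself mean a smaller difference. Figures were drawn with matplotlib 3.10.9.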

Additional observations from a re-analysis of the deposited data

Results flagged for a closer look

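Of 60 groups of 4 samples tested for a sample far from the others, 4 had one; chance alone marks about 1 in 20. Mmp13 read 5.85 in wild type 3, against 5.54 in the nearest wild-type sample. In the knockout group, sample 4 stood below the others for Col6a2 (8.09, nearest 8.34), Dcn (9.22, nearest 9.53) and Lum (6.56, nearest 7.02). These 3 genes share that array, which was also the lowest knockout sample for 33 of the 50 bright matrix genes.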

How the results depend on the processing

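No result changed sign among called values under any alternative run. Of the 13 called members, 13 kept their call with quantile and with cyclic loess normalisation, 12 with median centring, and 10 to 13 when 1 array was left out. Lama3, Col14a1 and Mmp13 kept theirs in all 21 alternatives, and Mmp14 in 20.

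The count of members higher in the knockout (6 as reported) was 3 with the mean of probe sets and 3 at a threshold of 0.01. It was 0 with a fold of at least 1.5 and 2 in the unmoderated linear model. The count lower (7) was 11 with trend and robust, 4 at 0.01, 3 with the fold, 4 in the unmoderated model, 4 without the 3 arrays low in hybridization controls and 4 with those controls as a covariate. With 1 array left out these counts were 5 to 7 and 5 to 8. Cyclic loess gave 6 higher and 10 lower. Over all genes it gave 2509 higher and 2646 lower, and median centring 3316 and 1970. Over all genes (2924 higher, 2210 lower), the fold left 351 higher and 474 lower, and the count lower was 1446 at 0.01 and 1414 without the 3 arrays. Leaving out 1 array gave 2493 to 2853 higher and 1873 to 2100 lower.

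Class medians moved as follows. Without dim genes they were 0.0346 for basement membrane collagens, 0.0972 for metalloproteinases and 0.0228 for transmembrane collagens. Lysyl oxidases gave -0.0560 with quantile normalisation, -0.0352 with the mean of probe sets and -0.0558 without the 3 arrays. Timp inhibitors gave -0.154 with the mean of probe sets and -0.188 without the 3 arrays, and basement membrane collagens 0.0470 without the 3 arrays. With 1 array left out, FACIT collagens ranged from -0.0180 to 0.0178, transmembrane collagens from -0.0728 to -0.0102 and Timp inhibitors from -0.316 to -0.186. The median of fibronectin, proteoglycans and matricellular genes (-0.12) ranged from -0.22 without wild type 2 to -0.0109 without knockout 4, and was -0.0297 without wild type 3. Beaded filament, network and anchoring collagens (-0.0744) ranged from -0.136 without wild type 4 to -0.0288 without knockout 4. The cause of these moves was not tested.

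Same-numbered samples of both genotypes did not deviate together in every pair (correlations 0.22, -0.05, 0.11 and 0.16), so the numbers were not taken to pair them. With a replicate block, 5 members were higher and 10 lower, and 11 of the 13 kept their call; Col8a2 and Mmp23 did not. Under the block Fn1 (-0.29, limma adjusted p = 0.0309) and Nid1 (-0.18, limma adjusted p = 0.0450) passed as lower. Signal near the floor limits the 37 dim members. In the simulation, with 50 genes changed at each size, differences of 0.25 were recovered in 44% of genes. That share is not the power reached in the data, where 5134 genes passed.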
